A study of Mus musculus with 15 samples.

Results

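The genes described here are 10 direct targets of the transcription factor p53 in mouse liver: Cdkn1a, Mdm2, Ccng1, Bax, Phlda3, Eda2r, Zmat3, Trp53inp1, Aen and Btg2. They were chosen by name as known p53 targets, not by their values in these libraries, though with earlier results of these data known. Each symbol matched 1 gene ID of the 54281 in the deposited table, and all 10 were among the 11568 genes with enough signal to be tested.

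Liver RNA was sequenced from 15 male C57BL6J mice aged 9.5 months, with 1 library per animal, in a design that crossed 2 treatments with 2 feeding regimes. On chow there were 3 animals with saline and 5 with MCOPPB, called chow saline and chow MCOPPB. The DEN/HFD animals, 4 with saline and 3 with MCOPPB, had 25 mg/kg of the liver carcinogen diethylnitrosamine (DEN) at 2 weeks of age and chow until week 6. A high fat diet (HFD), in which fat supplied 60% of the energy, followed for 32 weeks. Carcinogen and diet always came together, so their parts cannot be told apart. MCOPPB binds the nociceptin/orphanin FQ receptor, and the series title calls it a senolytic drug. It was injected intraperitoneally at 5 mg/kg in 3 cycles of 5 days on and 2 days off, over 21 days, and the other animals had saline. The labels name no genetic modification, and RNA came from liver tissue.

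The p53 protein is kept low in unstressed cells because MDM2, itself made from a p53 target gene, marks it for destruction. DNA damage and other stress break that loop, and p53 then binds paired copies of a short palindromic motif near its targets and raises their transcription. The protein of Cdkn1a, p21, blocks cyclin-dependent kinases, halts the cell cycle and is a widely used marker of senescent cells. In liver, Cdkn1a is raised by fat overload, carcinogens and partial hepatectomy, and it also responds to signals other than p53.

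The p53 site gives the family its common feature, and 4 of the members have a promoter with a close match to it. The full site, 20 bases made of a pair of 10-base decamers with at most 1 base between them, was scored in RefSeq promoters (GRCm38.p6, 250 bases before to 50 bases after each start, both strands at once because the motif reads the same on each). Both decamers had to hold the fixed central C and G of the motif, so each best match is the best among such pairs. The shares of promoters follow the same rule. Of the members, 8 had an entry in that promoter table. The best match of each of the following is shown with 5 flanking bases, 5′ to 3′ on the strand of the gene, with the decamers in capitals.
Cdkn1a: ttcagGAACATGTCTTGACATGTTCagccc
Ccng1: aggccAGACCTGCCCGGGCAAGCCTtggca
Bax: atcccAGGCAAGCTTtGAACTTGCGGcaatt
Aen: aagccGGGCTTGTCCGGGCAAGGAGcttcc
The Cdkn1a window lies at chr17:29090923-29090952 on the plus strand, and its site, 51 to 32 bases before the more upstream of the annotated starts, has 1 mismatch in 20 bases. The promoter of the more downstream Cdkn1a start had a best match with 7 mismatches, reached by 59.8% of promoters. The Ccng1 window lies at chr11:40755457-40755486 on the minus strand, with a site 195 to 176 bases before the start and 1 mismatch. A match that good was present in 0.11% of all 32851 promoters in the table. The Bax window, chr7:45467074-45467104 on the minus strand, holds a site 201 to 181 bases before the start with 2 mismatches and 1 base between the decamers, a match reached by 0.682% of promoters. The Aen window, chr7:78895932-78895961 on the plus strand, holds a site 121 to 102 bases before the more downstream of the annotated starts, with 3 mismatches, a match reached by 2.82% of promoters. In Phlda3 the best match had 5 mismatches, which 22.9% of promoters reached. In Btg2 (7 mismatches, reached by 59.8%) and in Mdm2 and Eda2r (9 mismatches, reached by 78.5%) the window held no match better than is common. Sites outside these 300 bases were not searched, and no binding was measured.

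Levels are given as normalized counts, obtained by inverting the authors' variance-stabilised log2 values, and 1 read is worth 0.75 to 1.59 normalized counts depending on the library. Depth was estimated at 9.32 M to 18.7 M reads per library. Mitochondrial transcripts took 12% to 31% of the signal, and 13863 to 16675 genes per library were above the lowest value. The RNA integrity number (RIN), by the first of the entries in the labels, was 9.9 to 10.0 in chow MCOPPB animals, 9.0 to 9.7 in chow saline, 8.4 to 9.2 in DEN/HFD saline and 8.7 to 9.2 in DEN/HFD MCOPPB, so it moved with the groups. The labels hold another RIN entry for each animal, by which the groups overlapped. Most values of that entry recur in the same order in the chow and in the DEN/HFD animals as listed. Its overlap therefore cannot show whether RNA integrity differed between the groups. All RIN values and fits given here use the first entry. Chow saline 2 had the fewest genes above the lowest value (13863) and 29.3% mitochondrial transcripts, and 3 members (Eda2r, Zmat3 and Btg2) were listed at 0 in it. The hepatocyte markers were present throughout, with albumin (Alb) at 1192307 normalized counts or more in every library.

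**Figure D1:**
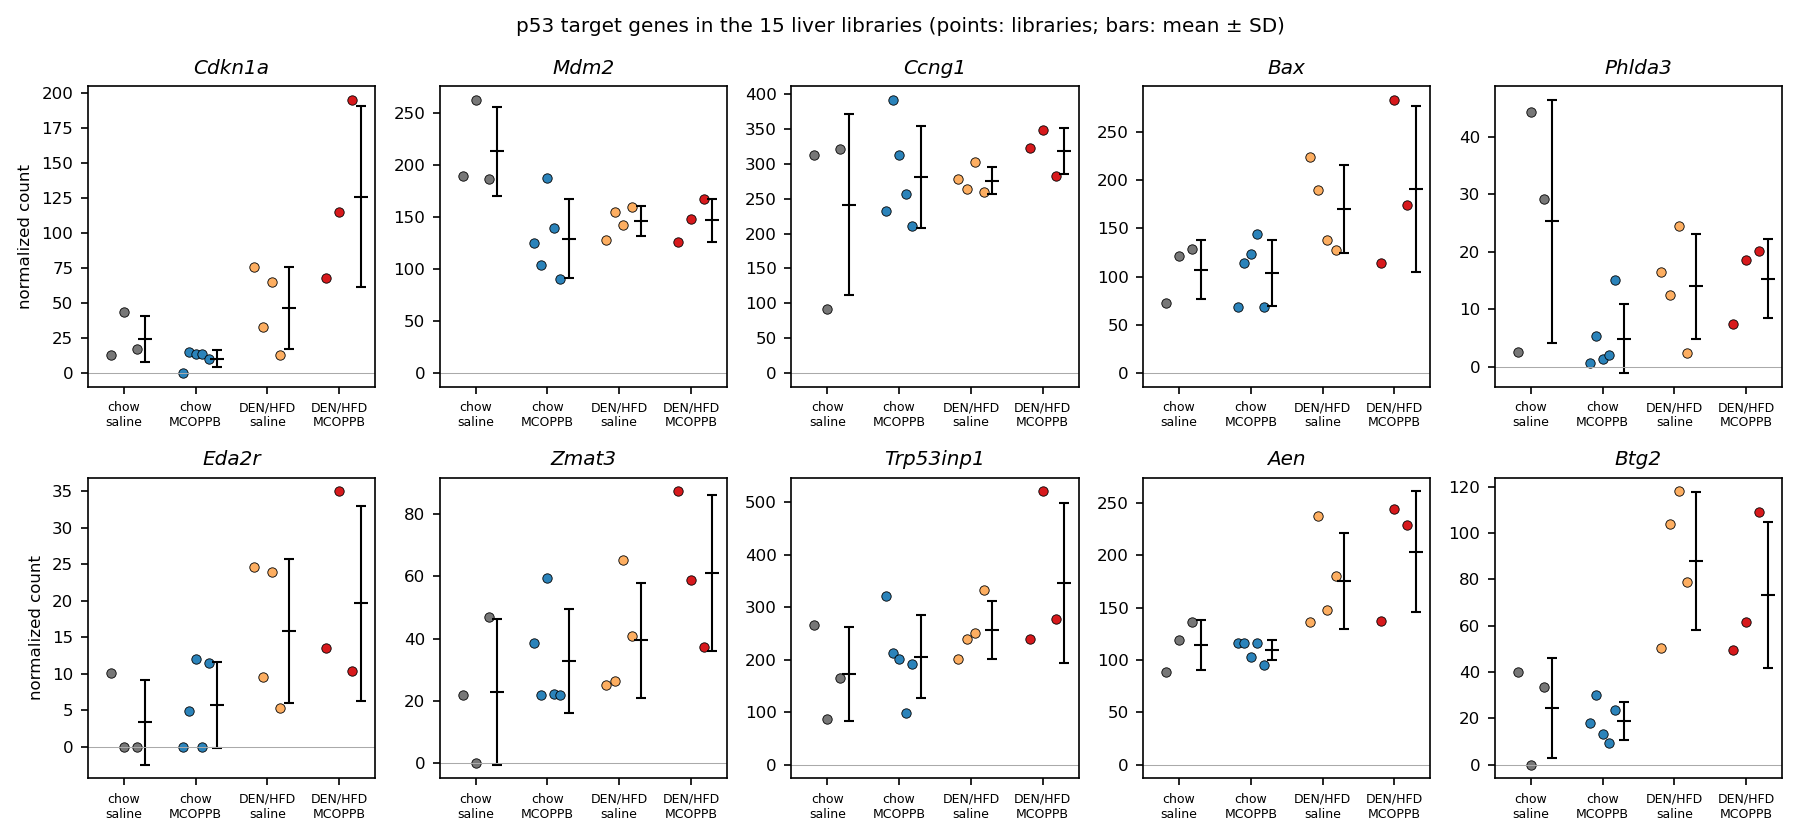
Normalized count (y axis, linear) of each of the 10 p53 targets in the 15 liver libraries, by group (x axis); points are libraries and bars are mean ± SD. All 7 DEN/HFD libraries lie above the 8 chow libraries for Btg2, the 3 DEN/HFD MCOPPB libraries lie above all chow libraries for Cdkn1a, Mdm2 is highest in chow saline, and Ccng1 is level apart from 1 chow saline library at 92.2.

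Per kilobase of annotated exon sequence, over all libraries, Bax (88.3 ± 37.3 normalized counts per kb, SD, n = 15) and Ccng1 (79.5 ± 19.7) were the most abundant members, and their ranges overlapped. Trp53inp1 (37.1 ± 16.1), Mdm2 (30.3 ± 8.29), Aen (25.3 ± 8.93), Btg2 (18 ± 13.8), Cdkn1a (12.9 ± 14.7) and Phlda3 (8.65 ± 8.02) followed, each within an SD of its neighbour. Zmat3 (3.35 ± 1.95) and Eda2r (1.82 ± 1.75) were the lowest on this scale. The order differed between groups: Cdkn1a was at 35.4 ± 18.1 per kb in DEN/HFD MCOPPB, level with Aen (35.1 ± 9.95), and at 2.92 ± 1.72 in chow MCOPPB, and the mean of Bax was under that of Ccng1 in chow MCOPPB (65.6 and 79.9) and above it in DEN/HFD saline (108 and 78.6).

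The clearest pattern was higher levels under DEN/HFD. With both treatments together, 9 of the 10 members had a positive log2 difference between DEN/HFD and chow, with a median of 0.50, where 49.6% of all genes tested were positive and the median gene was at 0.00. The exception was Mdm2 at -0.11. At an adjusted p under 0.05 (limma, Benjamini-Hochberg over all 11568 genes), 2 members were called, both higher: Cdkn1a and Btg2. The share called among all genes in that comparison was 1.32%. At an unadjusted p under 0.05, 7 members were higher and none lower, beside 16.7% of all genes in either direction and 8.64% higher. With chow saline 2 left out, 9 of 10 were still positive and 6 were higher at an unadjusted p under 0.05. With RIN as a covariate, 7 of 10 were positive, 2 were higher at an unadjusted p under 0.05, the median fell to 0.18, no member was called, and over all genes the number called went from 153 to 0.

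Within each treatment the direction was alike, and fewer members passed. Among MCOPPB animals, all 10 members were higher under DEN/HFD than on chow (median 0.54, beside 49.4% of all genes positive and a median of -0.01), and 1, Cdkn1a, was called, beside 0.571% of all genes. At an unadjusted p under 0.05 there were 5 members, all higher (12.3% of all genes), and for 3 members, Cdkn1a, Aen and Btg2, every DEN/HFD library was above every chow library (9.31% of all genes did not overlap in either direction). The RIN entry used did not overlap between these 2 groups. The other entry did, but its values recur in the same order in both, so that overlap shows nothing about integrity. With RIN as a covariate 7 of 10 were positive (Ccng1, Zmat3 and Trp53inp1 turned), the median was 0.22 and 2 members, Cdkn1a and Aen, passed an unadjusted p under 0.05, beside 13.5% of all genes. Without DEN/HFD MCOPPB 2 the median was 0.35 and 3 members passed. Among saline animals, 8 of 10 were positive (median 0.42, beside 51.4% and 0.01 for all genes) and none was called, beside 0.0519% of all genes. There, 4 members passed an unadjusted p under 0.05, 3 higher and 1 lower (11.0% of all genes), and 3 did not overlap between the groups, Aen and Btg2 higher and Mdm2 lower (9.09% of all genes). The saline and MCOPPB comparisons use different animals, but both enter the comparison over both treatments.

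**Figure D2:**
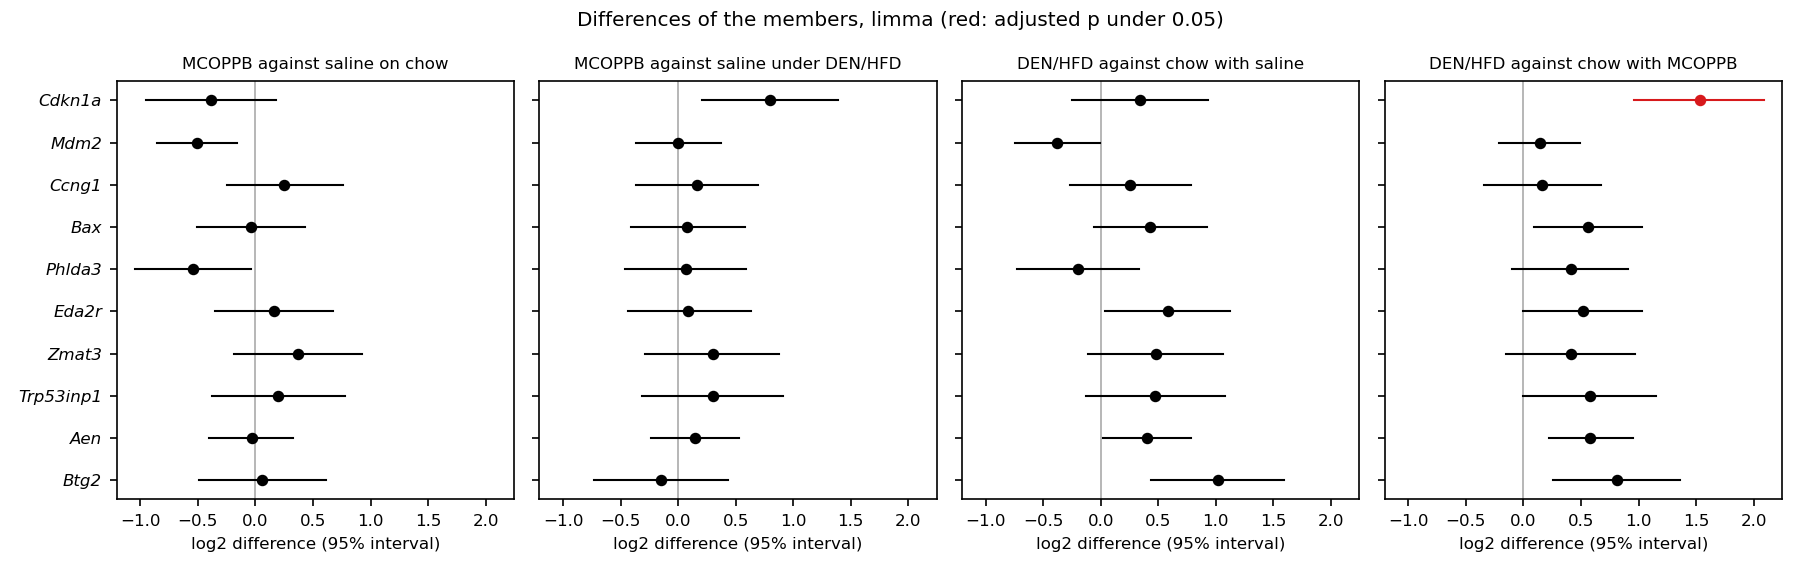
Log2 difference (x axis, deposited variance-stabilised scale) of each member (y axis) in the 4 comparisons of 2 groups; points are limma estimates, lines are 95% intervals, and red marks an adjusted p under 0.05. Cdkn1a in the comparison of DEN/HFD with chow among MCOPPB animals is the red point, at 1.53, and the intervals of most other members include 0.

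Cdkn1a (ENSMUSG00000023067.14, chr17:29090976-29100727, plus strand), the gene of the cell cycle inhibitor p21, had the largest difference of the members among MCOPPB animals. Over both treatments the differences of Cdkn1a (0.96 ± 0.23, SE) and Btg2 (0.91 ± 0.19) were of like size. The normalized counts of Cdkn1a were 67.7, 115 and 195 in the DEN/HFD MCOPPB libraries and 76, 32.8, 65 and 12.6 in the DEN/HFD saline libraries. They were 0, 15.1, 13.5, 13.4 and 9.92 in chow MCOPPB and 12.6, 43.4 and 17 in chow saline. Every DEN/HFD MCOPPB library was thus above every chow library of either treatment, while DEN/HFD saline ran from chow-like levels to the lower end of DEN/HFD MCOPPB. In order, the group means were 126 ± 64.3 (SD, n = 3) in DEN/HFD MCOPPB, 46.6 ± 29.2 (n = 4) in DEN/HFD saline, 24.3 ± 16.6 (n = 3) in chow saline and 10.4 ± 6.1 (n = 5) in chow MCOPPB, and each group overlapped with its neighbour in that order.

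Among MCOPPB animals, Cdkn1a rose under DEN/HFD by 1.53 ± 0.27 on the log2 scale (SE; limma, adjusted p = 0.0152), and the ratio of the mean normalized counts was 12.1. The log2 scale of the deposited values compresses differences of genes with few reads, so the log2 value is the smaller of the pair. Over both treatments the rise was 0.96 ± 0.23 (limma, adjusted p = 0.0491). Among saline animals the difference was 0.34 ± 0.28 (limma, adjusted p = 0.708), with a ratio of means of 1.92. The call among MCOPPB animals was lost without DEN/HFD MCOPPB 2 (1.54, adjusted p = 0.0569) or DEN/HFD MCOPPB 3 (1.28, adjusted p = 0.163), and with RIN as a covariate (1.85 ± 0.47, adjusted p = 0.273). Over all 22 alternatives that adjusted p ran from 0.00314 to 0.273. The call over both treatments lay at the threshold: leaving out any of 13 of the 15 libraries ended it, with adjusted p from 0.0593 to 0.155, and with RIN as a covariate it was 0.76 ± 0.37 (adjusted p = 0.562, with 0.00948 to 0.562 over all 21 alternatives). The 273 bases of Cdkn1a exons that face an unclassified transcript on the opposite strand are a small part of its 3553 exon bases, and the strand setting of the counting is not given in the sources used here.

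Btg2 (ENSMUSG00000020423.6, chr1:134075170-134079120, minus strand), an antiproliferative gene that is also induced early after many stimuli, gave the second call. It had 50.5, 104, 118 and 79 normalized counts in DEN/HFD saline and 49.4, 61.4 and 109 in DEN/HFD MCOPPB. On chow it had 39.8, 0 and 33.5 with saline and 17.9, 29.9, 13.1, 9.35 and 23.7 with MCOPPB. The 7 DEN/HFD libraries were all above the 8 chow libraries. Over both treatments Btg2 rose by 0.91 ± 0.19 (limma, adjusted p = 0.0249). The difference was 1.02 ± 0.27 in saline animals (adjusted p = 0.192, ratio of means 3.60) and 0.81 ± 0.26 in MCOPPB animals (adjusted p = 0.202, ratio of means 3.90), and neither passed alone. Without chow saline 2, where Btg2 was listed at 0, the difference in saline animals was 0.60 ± 0.23 (adjusted p = 0.457, with 0.0996 to 0.522 over all alternatives). Leaving out DEN/HFD saline 2 (adjusted p = 0.0524), DEN/HFD MCOPPB 2 (adjusted p = 0.0608) or DEN/HFD MCOPPB 3 (adjusted p = 0.0866) ended the call over both treatments. With RIN as a covariate the difference was 0.58 ± 0.28 (adjusted p = 0.562) over both treatments and 0.06 ± 0.42 (adjusted p = 0.964) in MCOPPB animals. Over all alternatives the adjusted p ran from 0.0127 to 0.562 over both treatments and from 0.0569 to 0.964 in MCOPPB animals.

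Members with a role in cell death lay on the same side with smaller differences. Aen (ENSMUSG00000030609.18, chr7:78895854-78911209, plus strand), a nuclease that enhances apoptosis, had 136, 238, 148 and 180 normalized counts in DEN/HFD saline and 137, 244 and 229 in DEN/HFD MCOPPB. The chow libraries had 88.7, 119 and 136 with saline and 116, 116, 103, 116 and 95.1 with MCOPPB, so that the highest chow library (136) lay level, to the digits shown, with the lowest DEN/HFD library (136). Its difference over both treatments, 0.50 ± 0.12, stopped just short of a call (limma, adjusted p = 0.0564). It was 0.40 ± 0.18 in saline animals (adjusted p = 0.428) and 0.58 ± 0.17 in MCOPPB animals (adjusted p = 0.153).

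Bax (ENSMUSG00000003873.11, chr7:45461697-45466898, minus strand), whose protein opens the outer mitochondrial membrane in apoptosis, had 224, 189.8, 138 and 127 normalized counts in DEN/HFD saline and 114, 283 and 174 in DEN/HFD MCOPPB. On chow it had 72.5, 121 and 128 with saline and 68.1, 114, 123, 144 and 68.2 with MCOPPB, and the groups overlapped. The difference was 0.50 ± 0.16 over both treatments (limma, adjusted p = 0.119) and 0.56 ± 0.22 in MCOPPB animals (adjusted p = 0.305). Without DEN/HFD MCOPPB 2, which had 283, the latter was 0.32 ± 0.23 (adjusted p = 0.757, with 0.103 to 0.757 over all alternatives). A second annotated gene on the same strand shares 192 of the 1576 exon bases of Bax.

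Eda2r (ENSMUSG00000034457.10, chrX:97333840-97377216, minus strand), a receptor of the TNF receptor family, was the weakest member. It had 24.6, 9.58, 23.9 and 5.36 normalized counts in DEN/HFD saline and 13.5, 35 and 10.4 in DEN/HFD MCOPPB. On chow it was listed at 0 in 4 of the 8 libraries, with 10.1, 0 and 0 for saline and 0, 4.88, 12, 0 and 11.5 for MCOPPB. The differences were 0.55 ± 0.17 over both treatments (limma, adjusted p = 0.117), 0.58 ± 0.26 in saline animals (adjusted p = 0.404) and 0.52 ± 0.24 in MCOPPB animals (adjusted p = 0.404). Among MCOPPB animals it was 0.04 ± 0.42 with RIN as a covariate (adjusted p = 0.976, with 0.245 to 0.976 over all alternatives). At 35 normalized counts or fewer per library, Eda2r rested on few reads.

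Phlda3 (ENSMUSG00000041801.5, chr1:135766119-135769136, plus strand), an inhibitor of AKT signalling, had groups that overlapped under both feeding regimes. Chow saline libraries had 2.5, 44.3 and 29.2 normalized counts and chow MCOPPB libraries 0.581, 5.37, 1.36, 1.97 and 15.1. DEN/HFD saline libraries had 16.5, 12.5, 24.5 and 2.46, and DEN/HFD MCOPPB libraries 7.4, 18.5 and 20.1. The highest value of all was in chow saline 2, the library that stands apart, and the low values were spread over 3 groups.

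Zmat3 (ENSMUSG00000027663.12, chr3:32334792-32366014, minus strand), a zinc finger protein that binds RNA, had 87.4, 58.8 and 37.4 normalized counts in DEN/HFD MCOPPB and 25.2, 26.5, 65.2 and 40.9 in DEN/HFD saline. On chow it had 38.7, 21.8, 59.5, 22.1 and 21.9 with MCOPPB and 21.9, 0 and 46.8 with saline. The groups overlapped throughout. The difference over both treatments was 0.44 ± 0.19 (limma, adjusted p = 0.239), and it turned to -0.06 with RIN as a covariate. Trp53inp1 (ENSMUSG00000028211.11, chr4:11156431-11174379, plus strand), a stress protein tied to autophagy and to p53 activation, had 240.3, 521 and 277 normalized counts in DEN/HFD MCOPPB and 200.4, 240.0, 251 and 332 in DEN/HFD saline. On chow it had 322, 213, 201, 98.9 and 192 with MCOPPB and 266, 86.5 and 165 with saline. Its difference over both treatments was 0.53 ± 0.19 (limma, adjusted p = 0.168), and 0.04 with RIN as a covariate.

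The feedback regulators of p53 had small differences between DEN/HFD and chow. Mdm2 (ENSMUSG00000020184.15, chr10:117688875-117710758, minus strand), the ubiquitin ligase that degrades p53, had 190.0, 263 and 187 normalized counts in chow saline. It had 125, 104, 188, 139.5 and 90.6 in chow MCOPPB, 128, 155, 142 and 160.0 in DEN/HFD saline and 126, 148 and 167 in DEN/HFD MCOPPB. The lowest chow saline library (187) was thus above every DEN/HFD library, and 1 chow MCOPPB library (188) reached it. The difference between DEN/HFD and chow was -0.38 ± 0.18 in saline animals (limma, adjusted p = 0.439), and that between MCOPPB and saline on chow was -0.51 ± 0.17 (adjusted p = 0.313). Both comparisons share the 3 chow saline libraries. Ccng1 (ENSMUSG00000020326.7, chr11:40748552-40755311, minus strand), the cyclin G1 gene, whose protein acts on MDM2 through a phosphatase, varied little. It had 312, 92.2 and 321 normalized counts in chow saline, 232, 392, 313, 257 and 211 in chow MCOPPB, 278, 264, 302 and 260.1 in DEN/HFD saline and 323, 348 and 283 in DEN/HFD MCOPPB. The ratio of its mean level under DEN/HFD to that on chow was 1.14 in saline animals and 1.13 in MCOPPB animals. In saline animals its log2 difference turned negative without chow saline 2, which had 92.2. With RIN as a covariate the difference was negative in saline and in MCOPPB animals.

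No member was called for MCOPPB against saline. On chow, 5 of 10 members were higher with MCOPPB (median 0.01, beside 50.1% of all genes and 0.00), none was called (0.320% of all genes) and 2, Mdm2 and Phlda3, passed an unadjusted p under 0.05, both lower (9.06% of all genes). No member had groups that did not overlap (4.77% of all genes). Phlda3 was at -0.54 ± 0.24 (limma, adjusted p = 0.528), and Cdkn1a was at -0.39 ± 0.27 (adjusted p = 0.713, a ratio of means of 0.426). Phlda3 ran from -0.85 without chow saline 1 to -0.33 without chow saline 2, and Cdkn1a was at -0.20 without chow saline 2 and at -0.23 without chow MCOPPB 1. With RIN as a covariate, 3 members were higher at an unadjusted p under 0.05 (Zmat3 at 1.12 ± 0.32, Trp53inp1 at 0.86 ± 0.35 and Ccng1 at 0.82 ± 0.31) and 1, Mdm2, was lower (-0.70 ± 0.25), beside 14.1% of all genes. The median was then 0.19, and none was called. With chow saline 2 left out, 2 of 10 members were positive and the median was -0.12. With chow saline 3 left out, 7 of 10 were positive.

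Under DEN/HFD, 9 of 10 members were higher with MCOPPB (median 0.12, beside 49.3% of all genes and 0.00), none was called (0.0259% of all genes) and 1, Cdkn1a, passed an unadjusted p under 0.05 (4.74% of all genes). No member had groups that did not overlap (6.96% of all genes). Cdkn1a was at 0.80 ± 0.28 (limma, adjusted p = 0.836). Without DEN/HFD MCOPPB 2, 6 of 10 were positive, with a median of 0.02, and without DEN/HFD saline 4, 6 of 10, with a median of 0.09. Over both diets, 7 of 10 were positive (median 0.09, beside 50.0% of all genes and 0.00), and none was called (0.372% of all genes) or passed an unadjusted p under 0.05 (6.50% of all genes). Cdkn1a was there at 0.18 ± 0.23 (adjusted p = 0.969). With RIN as a covariate, 3 members (Zmat3, Trp53inp1 and Ccng1) were higher at an unadjusted p under 0.05, beside 6.44% of all genes, and the median was 0.23.

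The MCOPPB effect on Cdkn1a had opposite signs in the 2 feeding regimes, and the test of that difference did not pass over all genes. The effect under DEN/HFD minus that on chow was 1.19 ± 0.39 for Cdkn1a (limma, adjusted p = 0.650) and 0.52 ± 0.24 for Mdm2 (adjusted p = 0.835). These were the 2 members with an unadjusted p under 0.05 (5.90% of all genes), 6 of 10 were positive (median 0.11, beside 49.4% of all genes and 0.00), and none was called (0.0692% of all genes). Without chow saline 2, all 10 were positive, with a median of 0.32, and without DEN/HFD MCOPPB 2, 4 of 10 were positive, with a median of -0.09.

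The list of p53 and its regulators held 16 genes, of which 12 were tested. None was called in any of the 7 comparisons (limma), and at most 2 of the 12 passed an unadjusted p under 0.05 in any of them, beside 4.74% to 16.7% of all genes. Trp53, the p53 gene itself, ran from 94.8 to 267 normalized counts, with means of 170 in chow saline, 120 in chow MCOPPB, 134 in DEN/HFD saline and 183 in DEN/HFD MCOPPB. Its relative Trp73 was listed at 0 in every library. Cdkn2a, the gene of p16 and p19ARF and another senescence marker, was listed at 0 in 8 libraries and reached 8.02 at most, too few reads to be tested. Cop1, a ligase that acts on p53, was at 0.73 ± 0.26 (limma, adjusted p = 0.853) and Hipk2, a p53 kinase, at 0.53 ± 0.23 (adjusted p = 0.974) for MCOPPB against saline under DEN/HFD. Ppp1r13l, the gene of the p53 inhibitor iASPP, was at 0.27 ± 0.13 (adjusted p = 0.292) for DEN/HFD against chow over both treatments.

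A further 48 known p53 targets were grouped by function, and 38 of them were tested. None was called in any of the 7 comparisons. For DEN/HFD against chow over both treatments, 28 of the 38 were positive, with a median of 0.06, beside 49.6% of all genes and 0.00. At an unadjusted p under 0.05, 8 were higher and 2 lower, beside 8.64% and 8.07% of all genes. With chow saline 2 left out, 23 of 38 were positive. Among cell death genes 8 of 9 were positive (median 0.28), among arrest and growth genes 5 of 6 (median 0.37), among metabolism and redox genes 11 of 13 (median 0.16) and among DNA repair genes 4 of 10 (median -0.04). Apaf1, the scaffold of the apoptosome, was at 0.72 ± 0.19 (limma, adjusted p = 0.0675), and Plk2, a stress-induced kinase, at 0.48 ± 0.13 (adjusted p = 0.0660). Perp, a membrane protein of p53-dependent apoptosis, was at 0.30 ± 0.12 (adjusted p = 0.189). Btg1, a relative of Btg2, was at 0.65 ± 0.21 (adjusted p = 0.120), and Ephx1, an epoxide hydrolase, at 0.61 ± 0.19 (adjusted p = 0.116). Sco2, an assembly factor of cytochrome c oxidase, was at 0.34 ± 0.15 (adjusted p = 0.248). Ddb2, a sensor of damaged DNA in nucleotide excision repair, lay on the other side, at -0.32 ± 0.15 (adjusted p = 0.266). For MCOPPB against saline under DEN/HFD, 15 of the 38 were positive (median -0.04), with 2 higher at an unadjusted p under 0.05, beside 2.30% of all genes: Ei24, an endoplasmic reticulum protein of cell death and autophagy, at 0.41 ± 0.18 (adjusted p = 0.971), and Rev3l, a translesion DNA polymerase, at 0.62 ± 0.27 (adjusted p = 0.961).

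Cell cycle genes that p53 is known to lower through p21 had mostly positive differences under DEN/HFD, and none was called lower (limma) or was lower at an unadjusted p under 0.05. Of 22 such genes 12 were tested, and for DEN/HFD against chow 9 of 12 were positive among MCOPPB animals (median 0.38, beside 49.4% of all genes) and 9 of 12 over both treatments (median 0.28, beside 49.6%). Mki67, the gene of the proliferation marker Ki-67, was the one called, beside 0.571% of all genes among MCOPPB animals and 1.32% over both treatments. It rose by 1.08 ± 0.23 among MCOPPB animals (limma, adjusted p = 0.0370) and by 0.92 ± 0.16 over both treatments (adjusted p = 0.0177), with means on chow of 3.84 (saline) and 13.9 (MCOPPB) normalized counts, and under DEN/HFD of 25.8 (saline) and 84.7 (MCOPPB). It was not called with RIN as a covariate (0.91 ± 0.41, adjusted p = 0.353, and 0.73 ± 0.26, adjusted p = 0.482). That order has DEN/HFD MCOPPB on top, as for Cdkn1a, and chow saline at the bottom, where Cdkn1a has chow MCOPPB. Liver tissue was sequenced whole, and whether both transcripts came from the same cells was not tested.

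**Figure D3:**
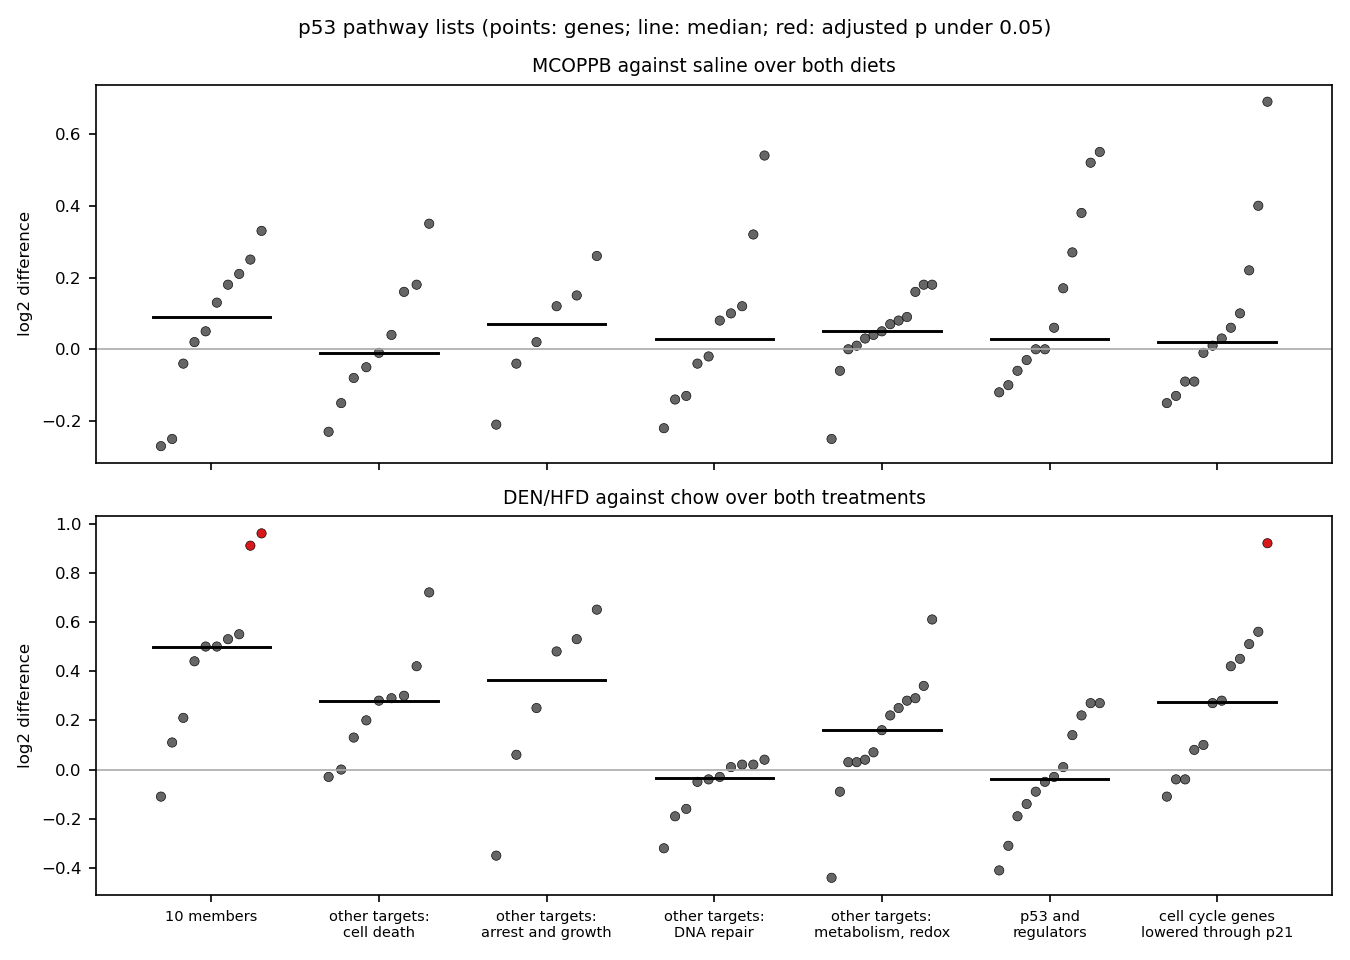
Log2 difference (y axis) of each tested gene in 7 lists (x axis) for MCOPPB against saline over both diets (top) and DEN/HFD against chow over both treatments (bottom); points are genes, lines are medians, and red marks an adjusted p under 0.05. In the bottom panel the median of the members lies at 0.50, that of DNA repair genes at -0.04, and the red points are Cdkn1a, Btg2 and Mki67; the top panel has no red point.

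Summed markers of several cell types and of early stress were higher under DEN/HFD than on chow without overlap, each in 1 treatment only. These were the MCOPPB animals for biliary and stellate cell markers, and the saline animals for macrophage markers and immediate early genes. In bulk RNA, more cells of a type and more RNA per cell cannot be told apart. The 8 biliary markers, of which 3 could be tested, summed to 448 to 839 normalized counts in DEN/HFD MCOPPB and 335 to 428 in chow MCOPPB, without overlap, as for Cdkn1a. In 3 of the 4 groups the libraries stood in the same order for this sum as for Cdkn1a, which held for at most 1 group for the other 8 lists compared. In DEN/HFD saline, for example, libraries 1, 3, 2 and 4 had 672, 633, 387 and 286, where Cdkn1a had 76, 65, 32.8 and 12.6. Most of the sum was Spp1 (osteopontin, also made by macrophages and hepatocytes under stress), at a mean of 476 in DEN/HFD MCOPPB and 231 in chow MCOPPB. The defining biliary genes were near 0 and no higher there: Krt19 averaged 7.18 in DEN/HFD MCOPPB and 13 in chow MCOPPB, and Epcam 8.19 and 11.5.

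The 10 stellate cell markers (9 tested) summed to 1756 to 2517 in DEN/HFD MCOPPB and 1120 to 1603 in chow MCOPPB, without overlap, and to 1043 to 3161 in DEN/HFD saline and 1030 to 2136 in chow saline, with overlap. Over both treatments 6 of the 9 were positive (median 0.26, beside 49.6% of all genes), and 1 was called, beside 1.32% of all genes. That gene, Col1a2, a chain of type I collagen, rose under DEN/HFD over both treatments by 1.06 ± 0.24 (limma, adjusted p = 0.0370). Others lay on the other side: the mean of Des, an intermediate filament protein, was 60.2 in DEN/HFD MCOPPB and 69.7 in chow MCOPPB, and that of Acta2, the smooth muscle actin of activated stellate cells, was 24.1 and 43.5. Timp1 was listed at 0 in 7 libraries. The 12 macrophage markers, all tested, summed to 1064 to 1376 in chow saline, against 2020 to 3631 in chow MCOPPB, 1947 to 4161 in DEN/HFD saline and 2371 to 4570 in DEN/HFD MCOPPB. Over both treatments 10 of the 12 were positive (median 0.56, beside 49.6% of all genes), and 1 was called, beside 1.32% of all genes. That gene, Cd68, rose under DEN/HFD by 0.80 ± 0.17 (limma, adjusted p = 0.0296). Among those on the other side, Marco averaged 96.9 in DEN/HFD MCOPPB and 248 in chow MCOPPB, and Timd4 12.5 and 48. Trem2 was listed at 0 in 5 libraries. Neither Col1a2 nor Cd68 was called with RIN as a covariate (limma, Col1a2 at 0.77 ± 0.38, adjusted p = 0.562, and Cd68 at 0.94 ± 0.28, adjusted p = 0.454). The part of these cell types in the differences of the members was not tested.

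Btg2 is an early response gene, and the 14 immediate early genes (11 tested) respond to stimuli and to handling within minutes. Their sum was 1233 to 1304 in chow saline and 2194 to 5291 in DEN/HFD saline, without overlap, and 1257 to 2312 in chow MCOPPB and 1840 to 2624 in DEN/HFD MCOPPB, with overlap. Jun and Jund, subunits of AP-1, rose under DEN/HFD in saline animals by 1.64 ± 0.28 (limma, adjusted p = 0.0373) and 1.82 ± 0.29 (adjusted p = 0.0303). These were the 2 called there of the 11, beside 0.0519% of all genes. Neither was called with RIN as a covariate (adjusted p = 0.264 and 0.217). Fos, the best known of them, stayed low, with means of 4.34 and 4.24 normalized counts on chow (saline and MCOPPB) and 12.3 and 12.2 under DEN/HFD. The part of this response in the level of Btg2 was not tested.

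The sum of genes of the circadian clock and its outputs was lowest in DEN/HFD MCOPPB, the group with the highest mean of Cdkn1a. In liver, Cdkn1a is itself known as a clock-controlled gene. The 16 clock genes (15 tested) summed to 2247 to 3031 in DEN/HFD MCOPPB, below every other library (3981 to 7914 in chow MCOPPB, 4700 to 6254 in DEN/HFD saline and 4994 to 9953 in chow saline). For DEN/HFD against chow among MCOPPB animals 4 of 15 were positive (median -0.65, beside 49.4% of all genes). Of the 15, 3 were called, all lower, beside 0.571% of all genes in either direction. Usp2, a deubiquitinase with a daily rhythm, fell by 2.25 ± 0.28 (limma, adjusted p = 0.000529), Tef, a transcription factor of clock output, by 1.43 ± 0.26 (adjusted p = 0.0179) and the period gene Per3 by 1.77 ± 0.33 (adjusted p = 0.0190). None of these 3 was called with RIN as a covariate. Usp2 was then at -1.74 ± 0.48 (limma, adjusted p = 0.276), Tef at -0.65 ± 0.40 (adjusted p = 0.478) and Per3 at -1.01 ± 0.54 (adjusted p = 0.427). Under DEN/HFD, Usp2 also fell with MCOPPB against saline, by 1.82 ± 0.29 (adjusted p = 0.0312), and it was still called there with RIN as a covariate (-1.90 ± 0.29, adjusted p = 0.0329). In the comparisons without the DEN/HFD MCOPPB group the clock genes had no common direction. For DEN/HFD against chow with saline 7 of 15 were positive (median -0.07), and for MCOPPB against saline on chow 8 of 15 (median 0.04). Chow saline 2 had both the highest clock sum (9953) and the highest Cdkn1a of its group (43.4). The part of the clock in the level of Cdkn1a was not tested.

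**Figure D4:**
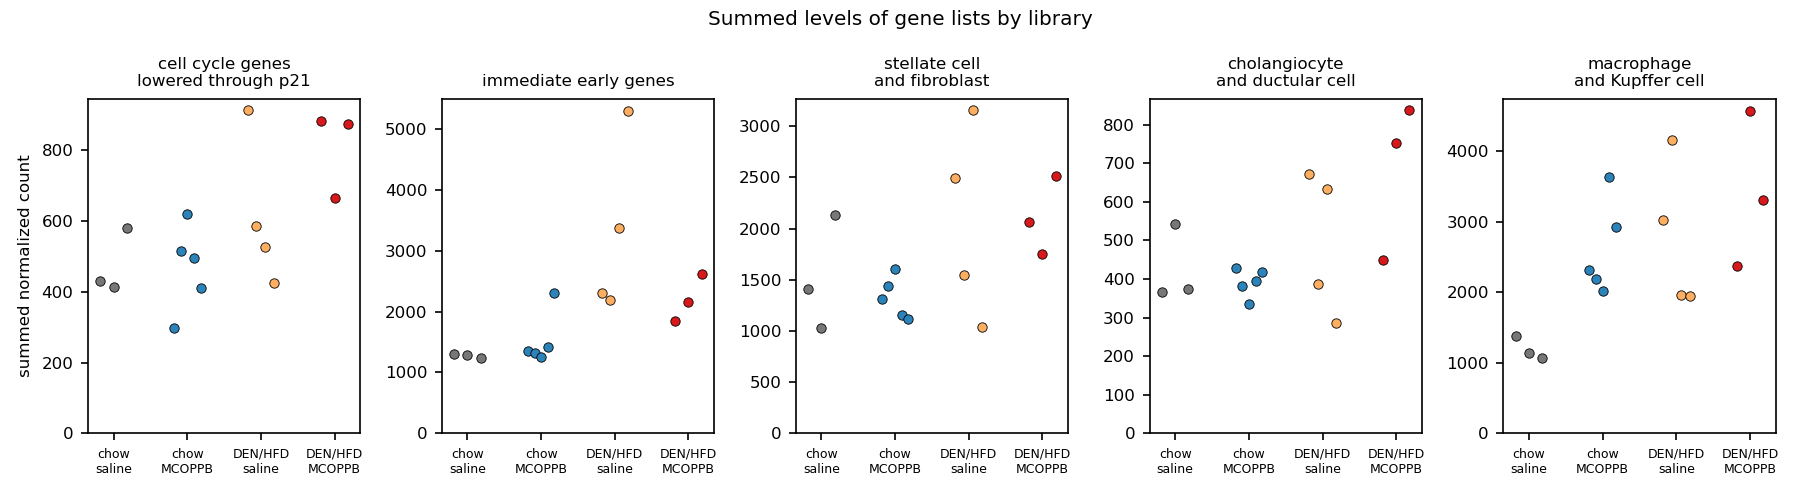
Summed normalized count (y axis, from 0) of 5 gene lists in each library (points) by group (x axis). Cell cycle, stellate and biliary sums are higher in DEN/HFD MCOPPB than in chow MCOPPB without overlap, immediate early sums separate the saline groups, and macrophage sums are lowest in chow saline, at 1064 to 1376.

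**Figure D5:**
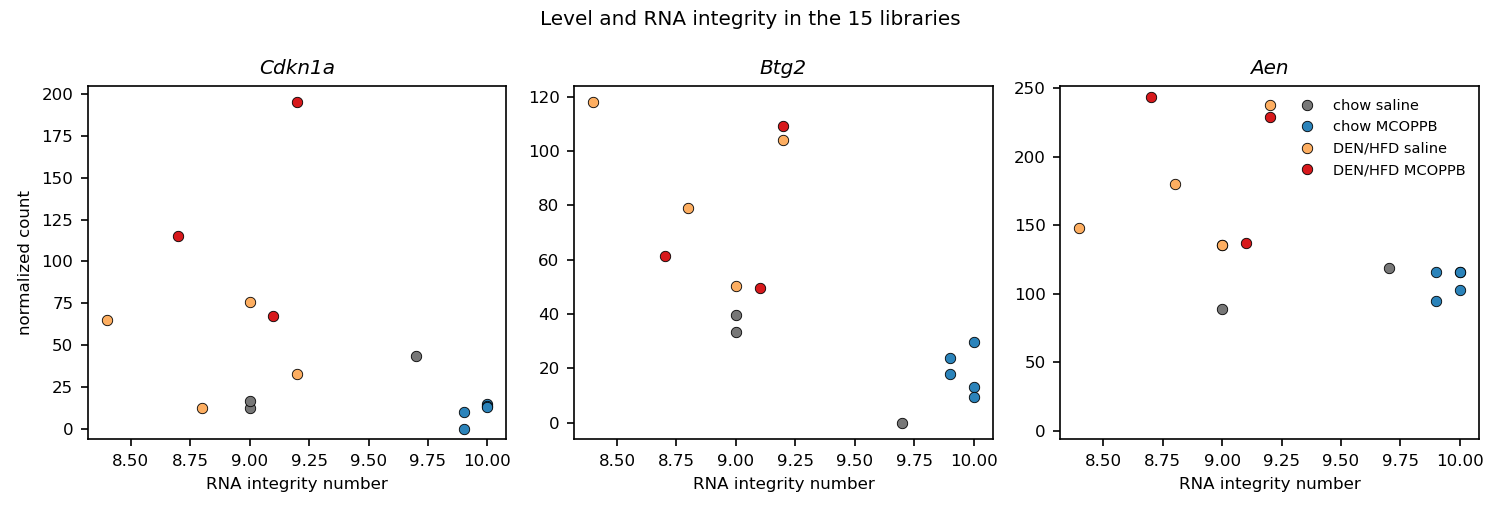
Normalized count (y axis) against RNA integrity number (x axis) of Cdkn1a, Btg2 and Aen; points are libraries, coloured by group. The chow MCOPPB libraries form the right edge of each panel at 9.9 to 10.0, with no DEN/HFD library above 9.2. The RIN entry used is thus tied to group in the MCOPPB comparison. The other RIN entry in the labels overlapped between those groups, but its values recur in the same order in both.

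Over the 15 libraries, the members did not form a single block. Cdkn1a correlated most with Bax (Pearson r = 0.72) and Aen (0.65) and least with Ccng1 (0.11), while Ccng1 went with Zmat3 (0.76). By Spearman correlation Cdkn1a was at 0.41 with Ccng1 and lowest with Trp53inp1 (0.07). These values share the group differences and the library that stands apart, and they are given as descriptions. With the group means removed, Cdkn1a and Aen were at 0.04, Cdkn1a and Bax at 0.54, Cdkn1a and Phlda3 at 0.67, and Ccng1 and Zmat3 at 0.72. On the negative side, Cdkn1a and Trp53inp1 were at -0.53 and Cdkn1a and Zmat3 at -0.44.

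The tested genes most like Cdkn1a over the 15 libraries were Wfdc2 (Pearson r = 0.93), Cxcl14 (0.90), Dnase2a (0.89), Tjp3 (0.88) and Bgn (0.87). Wfdc2 encodes a secreted protein of epithelia, Cxcl14 a chemokine, Tjp3 a tight junction protein and Bgn the matrix proteoglycan biglycan. Wfdc2 averaged 293 ± 96.2 normalized counts in DEN/HFD MCOPPB (SD, n = 3), 157 ± 92.8 in DEN/HFD saline (n = 4), 101 ± 45.2 in chow saline (n = 3) and 86 ± 38.8 in chow MCOPPB (n = 5), the order seen for Cdkn1a. None of the 5 was a member. The genes most like the mean of the members were Fam131c (0.92), Atf5 (0.91), Pdzrn3 (0.89), Gnai2 (0.89) and Hist1h1c (0.88). Atf5, a transcription factor of mitochondrial stress, averaged 4770 ± 574 in DEN/HFD MCOPPB (n = 3), 2827 ± 499 in DEN/HFD saline (n = 4), 1929 ± 262 in chow MCOPPB (n = 5) and 2080 ± 215 in chow saline (n = 3).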

How the data were processed

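RNA from 15 livers was sequenced as single 75-nt reads from directional libraries made from 250 ng of total RNA, per the labels' protocols. Trimmomatic, HTSeq, DESeq2 and STAR 2.7.0e were used on GRCm38 (mm10), per the submitters' processing notes, which give no settings here. The deposited table holds log2 values that the authors variance-stabilised, and their lowest value, 5.49, stands for 0 reads. These values were inverted to normalized counts for levels, sums and ratios. Reads were not recovered, so the depth is an estimate and counting intervals are left out. Names and positions came from GENCODE M21 (GRCm38), which named 54107 of the 54281 IDs.

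Genes at least 1 log2 unit above the lowest value (22.5 normalized counts) in at least 3 libraries were tested: 11568. limma 3.58.1 (R 4.3.3) was fitted to all 15 libraries with 4 group means and a mean-variance trend. The comparisons over both treatments or diets came from an additive model. Tests were two-sided, p-values were adjusted by Benjamini-Hochberg over all 11568 genes, and genes at an adjusted p under 0.05 were called. "Rose" is used for called genes. Errors of differences are moderated SEs, and errors of levels are SDs. The labels give 1 animal per library.

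Members, lists and tests were chosen with earlier results of these data known. Every member is named with its level. Its difference is given where the unadjusted p was under 0.05, and for Cdkn1a in every comparison. Of each pathway list, called genes are named, up to 4, or otherwise up to 2 with the smallest p under 0.05, for the comparisons described. Fos, Krt19, Epcam, Trem2, Timp1, Trp53, Trp73 and Cdkn2a are named as defining genes outside that rule, after their values were seen. The 5 genes with the highest Pearson correlation are named as most alike. The fit was tested on simulated data. Alternatives were the low-value filter, the scale, quantile normalization, the samples in the fit, array weights, RIN (the first of the RIN entries in the labels) as a covariate, replicate number as a block, and each library left out. Counts of members under each of these, the fits of every member with RIN and with the block, and the RIN fits of called list genes were added after seeing the data.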

Additional observations from a re-analysis of the deposited data

Results flagged for a closer look

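Within the groups of 4 and 5 animals, 20 sets of values (10 members in 2 groups) were checked for a library that stands far from the rest. Chance flags about 1 in 20 such sets, and 1 was found. Cdkn1a was listed at 0 normalized counts in chow MCOPPB 1, while the other libraries of that group had 9.92 to 15.1, and the gap made up 0.82 of the range on the log2 scale, above the limit of 0.71 for 5 samples. Without that library, the difference of Cdkn1a under DEN/HFD over both treatments was 0.86 ± 0.22 (limma, adjusted p = 0.0763) and was no longer called.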

How the results depend on the processing

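With the comparison of DEN/HFD and chow among MCOPPB animals, 1 member (Cdkn1a) was called. The count was 0 with the stricter filter, under which Cdkn1a was not tested, 0 with RIN as a covariate, 0 with the replicate block, and 0 to 1 when each library was left out in turn. Over both treatments 2 members were called. The count was 0 without a filter, 0 on log2(normalized count + 1), 0 with RIN, 0 with the replicate block, 4 with array weights (Cdkn1a, Btg2, Aen and Bax), and 0 to 2 when each library was left out. In the other 5 comparisons the count was 0 under every alternative run. With the replicate block, Cdkn1a was at 1.48 ± 0.29 (adjusted p = 0.0865) among MCOPPB animals and, over both treatments, at 0.94 ± 0.23 (adjusted p = 0.0850), with Btg2 at 0.93 ± 0.20 (adjusted p = 0.0558). Of 19 pairs of libraries with the same number in different groups, 5 had residuals correlated above 0.1 (mean -0.0273, beside 0.00838 for 64 other pairs), so the numbers only name animals. Of the differences with an unadjusted p under 0.05 or of Cdkn1a, 2 reversed: Cdkn1a for MCOPPB over both diets was -0.0014 on log2(normalized count + 1), and Zmat3 over both treatments was -0.06 with RIN. Over all 10 members, RIN turned 3 among MCOPPB animals (Ccng1, Zmat3 and Trp53inp1) and 2 over both treatments (Ccng1 and Zmat3), and leaving out 1 library turned up to 5 for MCOPPB on chow (without chow saline 2) and up to 3 under DEN/HFD. The causes were not tested. Over all genes, the number called under DEN/HFD ran from 0 (RIN) to 392 (array weights) over both treatments, where it was 153, and 6 to 460 with a library left out. Among MCOPPB animals it ran from 0 (RIN) to 285 (array weights), where it was 66, and 18 to 157. Among saline animals it was 6, with 1 (RIN) to 52 (without DEN/HFD saline 4). For MCOPPB it was 37 on chow (13 to 50), 3 under DEN/HFD (0 to 8), 43 over both diets (3 to 42) and 8 for the difference of effects (2 to 12). With 3 to 5 animals per group, a missing call does not show that levels were alike.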
